A study of Mus musculus with 9 samples.

Results

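The early growth response (EGR), Krüppel-like (KLF) and MYC transcription factors and 3 other immediate early genes were followed in mouse bone marrow-derived macrophages given oxidized low-density lipoprotein (ox-LDL). Members were the 10 genes named Egr1, Egr2, Egr3, Klf2, Klf4, Klf6, Myc, Ier2, Ier3 and Nr4a1 in the deposited tables, and all 10 were found among 56775 gene symbols. The 3 groups were MKP5-/- macrophages after 24 h with ox-LDL, wild-type (WT) macrophages after 24 h with ox-LDL, and WT macrophages at 0 h without it, with 3 libraries each. All cells were grown for 7 days from femoral marrow of mice on a C57BL/6 background, in medium with 15% supernatant of L-929 fibroblasts, and ox-LDL was used at 20 µg/mL. Dusp10 encodes MKP5, which removes phosphate from the stress-activated MAP kinases JNK and p38. The labels do not say whether libraries of a group came from separate mice, so p-values measure the spread between these libraries, which may be technical. Untreated MKP5-/- cells, and WT cells cultured 24 h longer but left untreated, were not analysed here. The difference between 24 h WT cells and 0 h WT cells therefore joins ox-LDL with time in culture, and the genotypes are compared in treated cells only.

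Immediate early genes are transcribed within minutes of a stimulus, without new protein synthesis, when MAP kinases phosphorylate factors already bound at their promoters, such as the ternary complex factors that sit with serum response factor on CArG elements. Their transcripts are mostly short-lived, so their level can follow current signalling, which was not measured here. In macrophages EGR factors take part in differentiation from monocytes, KLF2 and KLF4 restrain inflammatory transcription while KLF6 favours it, and MYC drives growth and ribosome production.

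Recovered reads per library ran from 11071502 to 14284653 in MKP5-/- cells at 24 h, from 17337925 to 19752514 in 24 h WT cells and from 15659559 to 17110416 in 0 h WT cells, so the MKP5-/- libraries were the shallowest. The deleted gene, Dusp10, had 4, 6 and 4 reads in MKP5-/- cells, against 43, 38 and 40 reads in 24 h WT cells and 41, 48 and 44 in 0 h WT cells, and was 5.65-fold lower in MKP5-/- than in 24 h WT cells (log2 fold change -2.50, SE 0.26, adjusted p = 9.18e-05). The macrophage markers Adgre1, Csf1r, Itgam, Cd68, Lyz2, Fcgr1 and Mertk were detected in every group, and their summed level was 11225 to 12824 CPM (reads scaled to a common library size) in MKP5-/- cells, 16450 to 19222 CPM in 24 h WT cells and 6643 to 6853 CPM in 0 h WT cells. The sum follows its most abundant gene, Lyz2, which averaged 5757 CPM in MKP5-/- cells, 10892 CPM in 24 h WT cells and 3025 CPM in 0 h WT cells. The 7 markers did not move together: in MKP5-/- against 24 h WT cells Cd68 and Fcgr1 were higher, Lyz2, Csf1r and Mertk were lower and 2 did not pass the test, and in 24 h WT cells against 0 h 5 rose while Cd68 and Fcgr1 fell. Markers of other cells also differed between the groups. The summed level of 8 fibroblast and stromal markers was 8.41 to 19.6 CPM in MKP5-/- cells, 97.1 to 119 CPM in 24 h WT cells and 2.73 to 4.40 CPM in 0 h WT cells, with none of the 8 at 0 in all libraries of a group. The summed level of 8 neutrophil and precursor markers was 0.364 to 0.545 CPM in MKP5-/- cells, 0.221 to 0.587 CPM in 24 h WT cells and 102 to 111 CPM in 0 h WT cells. Camp, Elane and Ly6g were at 0 in both 24 h groups and Mpo in MKP5-/- cells. Summed levels of 4 dendritic cell markers were 0.666 to 1.49 CPM in MKP5-/- cells, 0.689 to 0.975 CPM in 24 h WT cells, where Xcr1 was at 0, and 1.73 to 1.95 CPM in 0 h WT cells, and those of 5 B and T cell markers stayed at or below 0.380 CPM in every library. The part of these markers in the results below was not tested, and in bulk RNA fewer cells of a type and less RNA per cell cannot be told apart.

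Promoter sequence of 6 of the 10 members (Egr2, Klf2, Klf4, Klf6, Ier3 and Nr4a1) was searched in RefSeq's table for GRCm38.p6. The 250 bases before each annotated start were searched on both strands. Egr1, Egr3, Myc and Ier2 were not searched. The motifs were the CArG box, which binds serum response factor, and TGACGTCA (CREB and ATF), GCGNGGGCG (EGR), CACGTG (MYC and MAX), CCGGAA (ETS, including the ternary complex factors), CCACACCC (KLF), TGANTCA (AP-1), TATAAA and CCAAT. Egr2 is shown for the CArG box, which was in no window of the other searched members. Whether the members not searched hold a CArG box was not examined. Its 2 windows below lie on the plus strand at chr10:67537619-67537868 (start 3 of its 5 annotated starts) and at chr10:67537316-67537565 (start 2). Klf4 (minus strand, chr4:55532476-55532725), Nr4a1 (plus strand, chr15:101266596-101266845) and Klf2 (plus strand, chr8:72318812-72319061) are shown for the EGR motif. Capitals mark the CArG box, GCGNGGGCG, CACGTG and CCGGAA on either strand.
Egr2 start 3: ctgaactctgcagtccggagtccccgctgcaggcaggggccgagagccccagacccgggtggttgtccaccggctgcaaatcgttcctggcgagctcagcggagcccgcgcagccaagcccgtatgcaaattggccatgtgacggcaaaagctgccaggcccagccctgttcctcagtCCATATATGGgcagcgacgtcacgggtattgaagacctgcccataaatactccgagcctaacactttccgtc
Egr2 start 2: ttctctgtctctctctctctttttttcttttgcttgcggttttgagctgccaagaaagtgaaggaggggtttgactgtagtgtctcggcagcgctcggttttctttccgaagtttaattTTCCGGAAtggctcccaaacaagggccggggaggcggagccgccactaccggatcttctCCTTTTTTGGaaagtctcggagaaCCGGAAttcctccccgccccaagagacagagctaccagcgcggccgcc
Klf4: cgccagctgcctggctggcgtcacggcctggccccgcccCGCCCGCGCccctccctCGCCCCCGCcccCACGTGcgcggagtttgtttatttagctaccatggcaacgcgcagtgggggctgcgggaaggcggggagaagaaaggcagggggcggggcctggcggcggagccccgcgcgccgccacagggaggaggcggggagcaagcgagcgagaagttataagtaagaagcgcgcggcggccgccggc
Nr4a1: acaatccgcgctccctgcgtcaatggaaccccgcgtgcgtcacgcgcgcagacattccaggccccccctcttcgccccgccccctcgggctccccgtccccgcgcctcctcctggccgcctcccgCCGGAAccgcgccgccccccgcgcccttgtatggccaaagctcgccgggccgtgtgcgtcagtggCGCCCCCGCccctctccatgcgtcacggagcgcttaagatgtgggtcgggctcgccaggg
Klf2: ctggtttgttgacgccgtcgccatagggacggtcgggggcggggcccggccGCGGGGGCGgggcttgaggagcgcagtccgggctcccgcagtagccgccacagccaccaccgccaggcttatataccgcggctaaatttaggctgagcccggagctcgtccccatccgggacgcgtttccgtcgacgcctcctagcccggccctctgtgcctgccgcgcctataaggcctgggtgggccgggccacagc

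The CArG box CCATATATGG began at position -72 relative to Egr2 start 3 and also lay in the overlapping windows of starts 4 and 5, and a CArG box CCTTTTTTGG began at -72 relative to start 2, where 3 ETS motifs, 2 of them overlapping, lay as well. Of 27025 genes in the table, 1.62% had a CArG box in at least 1 window of this length (1.47% of 32851 windows). Egr2 has 5 of the 10 windows searched, which gives it more chances of a match than a gene with 1. The EGR motif was in the windows of 3 of the 6 members: at -211 and -194 in Klf4, at -60 in Nr4a1 and at -199 in Klf2, and 5.33% of all genes (4.7% of windows) held it. Klf4, Klf6 and Egr2 start 1 held the E-box CACGTG (6.86% of all genes and 6.02% of windows), Egr2 and Nr4a1 the ETS motif (13.6% and 12%), and Egr2, Klf6 and Ier3 the CCAAT motif (37.5% and 33.8%). These windows were richer in G and C, with 54% to 74.4%, than the median window of the table (52.4%). TGACGTCA, CCACACCC, TGANTCA and TATAAA were in no window of these members, and 1.55%, 3.2%, 6.75% and 12.4% of all windows held them. A match is a run of letters and does not show binding.

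Values are the deposited log2 normalized counts, which are scaled by exon length and by TMM-adjusted library size, so that levels can be set side by side between genes. All 10 members passed the filter on low reads, with at least 27 reads in every library, and none shared exon bases with another gene in the GENCODE M21 annotation. The order of their levels differed between the groups. Klf6 was the highest in each, at a mean log2 value of 5.96 ± 0.09 in MKP5-/- cells, 5.90 ± 0.03 in 24 h WT cells and 6.40 ± 0.06 in 0 h WT cells (SD, n = 3), above 96.0%, 95.8% and 97.0% of the tested genes in the same order. Egr3 was the lowest in each group. Egr2 had rank 2 in MKP5-/- cells (4.15 ± 0.14), rank 5 in 24 h WT cells (2.00 ± 0.19) and rank 8 in 0 h WT cells (0.43 ± 0.07). Without MKP5 the libraries of Ier2, Ier3 and Klf2 overlapped along the order, as did those of Klf4, Egr1 and Nr4a1. In 24 h WT cells the only neighbours with overlapping libraries were Nr4a1 and Klf4, and in 0 h WT cells they were Myc, Ier2 and Ier3, and Nr4a1, Egr2 and Egr1.

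**Figure D1:**
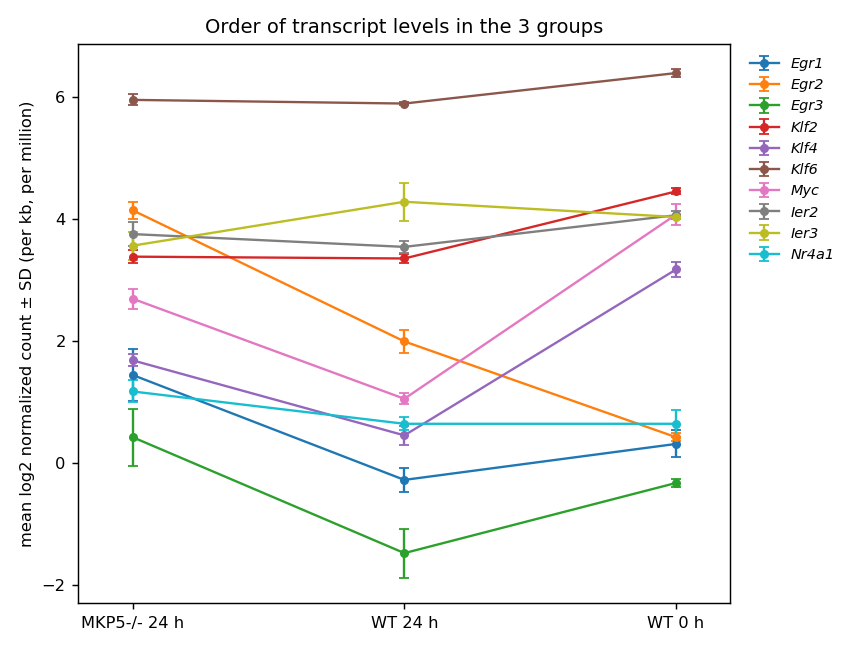
Mean log2 normalized count (scaled by exon length and library size, vertical axis) of the 10 transcripts in MKP5-/- cells at 24 h, WT cells at 24 h and WT cells at 0 h, with SD bars over 3 libraries and lines joining the groups of 1 gene. Egr2 stands at 4.15 in MKP5-/- cells and 0.43 in 0 h WT cells, while Klf6 stays between 5.90 and 6.40.

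The first comparison set WT macrophages after 24 h with ox-LDL against 0 h WT macrophages, which joins ox-LDL with time in culture. Of the 10 members 8 differed at an adjusted p under 0.05, against 55.6% of 14731 tested genes. Of these 7 fell and 1 rose, against 28.1% of tested genes that fell and 27.4% that rose, and 5 differed at least 2-fold, against 17.0%. All 8 had groups that did not overlap, as had 64.1% of tested genes. Myc and Klf4 fell most, Klf2 and Egr3 fell more than 2-fold, and Klf6, Ier2 and Egr1 fell less. Egr2 was the 1 member that rose. Among all called genes 49.4% were higher, and 57.8% were with upper-quartile scaling (4889 higher and 3564 lower), which shifted the median of all tested genes to 0.10. The median log2 fold change was -0.55 over the members and 0.00 over all tested genes.

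The second comparison asked how treated macrophages differ without MKP5. Of the 10 members 7 differed, against 28.7% of tested genes. In MKP5-/- cells 6 were higher than in 24 h WT cells, namely all 3 EGR genes, Klf4, Myc and Nr4a1, and Ier3 was lower, against 11.8% of tested genes that were higher and 16.9% that were lower. Groups did not overlap for 7 members, against 45.0% of tested genes. At least 2-fold differences were found for 5 members, against 5.57% of tested genes. Klf2, Klf6 and Ier2 did not pass the test. Among all called genes 41.1% were higher, and 51.8% were with upper-quartile scaling. The median log2 fold change was 0.88 over the members and -0.05 over all tested genes.

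The third comparison set MKP5-/- cells at 24 h against 0 h WT cells, which joins genotype, ox-LDL and time, and shares libraries with both others. All 10 members differed, against 56.4% of tested genes, with 4 higher (Egr1, Egr2, Egr3 and Nr4a1) and 6 lower, against 25.0% of tested genes that were higher and 31.4% that were lower. Differences of at least 2-fold were found for 5 members, against 16.3% of tested genes. Among all called genes 44.3% were higher, and 58.3% were with upper-quartile scaling, which shifted the median of all tested genes to 0.12. Groups did not overlap for all 10, against 63.4% of tested genes. The median log2 fold change was -0.38 over the members and -0.02 over all tested genes.

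**Figure D2:**
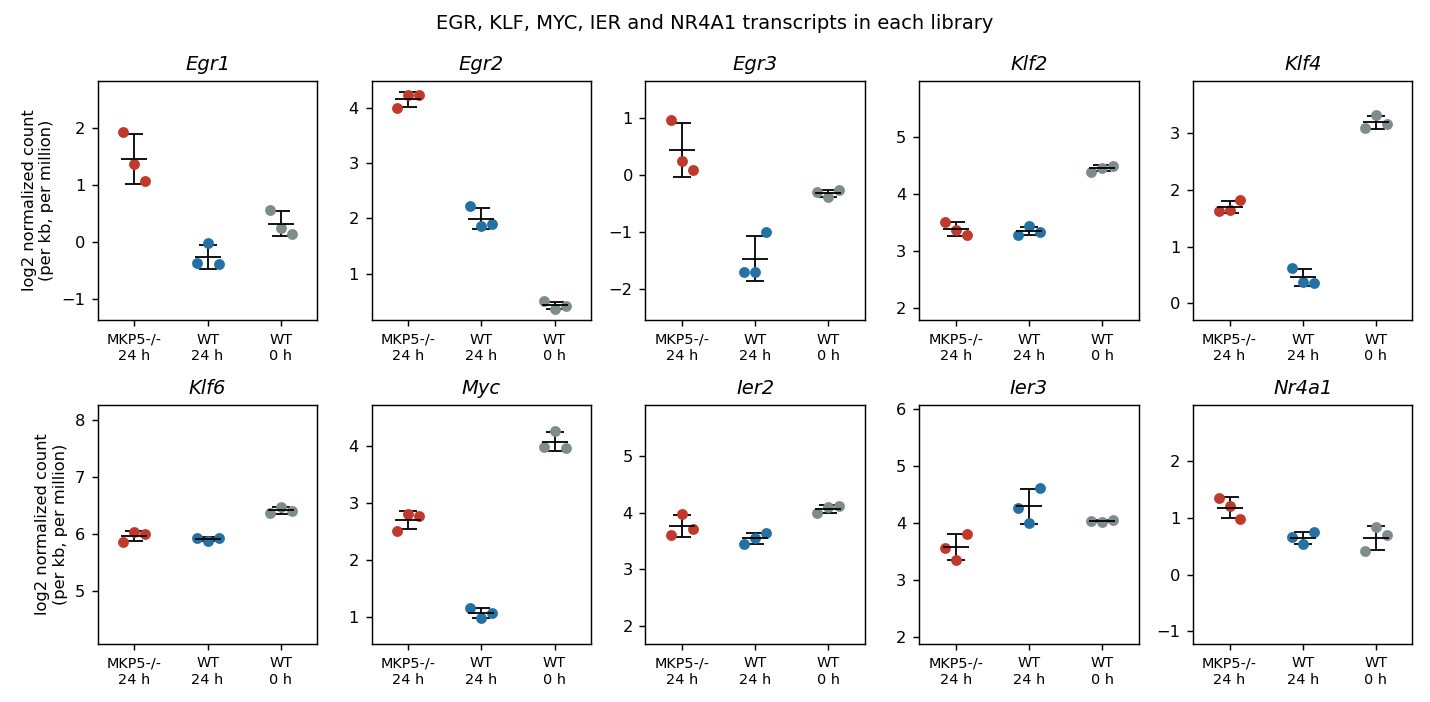
Log2 normalized count (scaled by exon length and library size, vertical axis, each panel at least 4.2 units high) of each transcript in the 3 libraries of MKP5-/- cells at 24 h (red), WT cells at 24 h (blue) and WT cells at 0 h (grey), with mean and SD in black. The MKP5-/- points lie above both WT groups for Egr1, Egr2, Egr3 and Nr4a1, and between them for Klf4 and Myc.

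The EGR genes encode zinc finger transcription factors that bind GC-rich sites. Egr2, which is also used as a marker of alternatively activated mouse macrophages, had log2 values of 3.99, 4.23 and 4.22 in MKP5-/- cells at 24 h, 2.22, 1.87 and 1.90 in 24 h WT cells, and 0.50, 0.37 and 0.41 in 0 h WT cells. The 3 groups did not overlap, and each step was far wider than the spread within a group. Egr2 rose 2.96-fold in WT between 0 h and 24 h (a log2 fold change of 1.57, SE 0.11, adjusted p = 3.61e-07). It was a further 4.44-fold higher in MKP5-/- cells than in 24 h WT cells (2.15, SE 0.11, adjusted p = 1.23e-06), which put it 13.17-fold above 0 h WT cells (3.72, SE 0.11). In reads, Egr2 had 739 to 1048 per library in MKP5-/- cells, 270 to 322 in 24 h WT cells and 83 to 88 in 0 h WT cells.

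Egr1, the prototype of the family and a classic reporter of ERK signalling, moved the other way with time in WT. Its log2 values were 1.92, 1.37 and 1.06 in MKP5-/- cells at 24 h, -0.38, -0.03 and -0.39 in 24 h WT cells, and 0.56, 0.25 and 0.14 in 0 h WT cells. All MKP5-/- libraries lay above all WT libraries, and replicate 1 was the highest of them. Egr1 was 3.28-fold higher in MKP5-/- cells than in 24 h WT cells (log2 fold change 1.71, SE 0.22, adjusted p = 3.45e-04) and 2.19-fold higher than in 0 h WT cells (1.13, adjusted p = 0.00114). The lower level in 24 h WT cells than at 0 h (-0.58, SE 0.22, adjusted p = 0.0437) was near the threshold. That call was lost without WT 0 h replicate 1 (adjusted p = 0.149) or 2 (adjusted p = 0.0723), without WT 24 h replicate 1 (adjusted p = 0.110) or 3 (adjusted p = 0.108), and in 3 of 9 other settings.

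Egr3, a relative that is often induced together with Egr2, was the rarest transcript, with 77 to 118 reads per library in MKP5-/- cells, 27 to 49 in 24 h WT cells and 65 to 67 in 0 h WT cells. Log2 values were 0.97, 0.24 and 0.09 in MKP5-/- cells, -1.71, -1.70 and -1.01 in 24 h WT cells, and -0.31, -0.39 and -0.27 in 0 h WT cells. As for Egr1, replicate 1 was the highest MKP5-/- library, and the groups did not overlap. That library had the fewest reads of all (11071502) and the largest TMM factor (1.23156). Without it, the differences between MKP5-/- and 24 h WT cells kept their calls, at 1.48 for Egr1 (adjusted p = 0.00114) and 1.64 for Egr3 (adjusted p = 0.00254). Egr3 was 2.22-fold lower in 24 h WT cells than at 0 h (a log2 fold change of -1.15, SE 0.28, adjusted p = 0.00438) and 3.75-fold higher in MKP5-/- cells than in 24 h WT cells (1.91, SE 0.28, adjusted p = 7.12e-04). Against 0 h WT cells it was 1.69-fold higher in MKP5-/- cells (0.76, adjusted p = 0.0385). This last call was lost when any WT 0 h replicate was left out (adjusted p = 0.0741 to 0.0938) or MKP5-/- replicate 1 (log2 fold change 0.49, adjusted p = 0.142), and in 3 of 9 other settings.

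Of 4 partners and relatives of the EGR factors, Nab1 and Nab2 could be tested and Egr4 and Wt1 had too few reads. Nab2, an EGR corepressor that is itself an EGR target, rose in WT to 43.9 ± 3.35 CPM at 24 h, against 27.9 ± 3.10 CPM at 0 h (SD, n = 3; log2 fold change 0.66, adjusted p = 6.03e-05). Without MKP5 it reached 65.1 ± 2.81 CPM, higher than in 24 h WT cells (0.57, adjusted p = 8.73e-04). Its paralogue Nab1 fell in both comparisons, to 61.3 ± 5.63 CPM in MKP5-/- cells, against 73.1 ± 3.44 CPM in 24 h WT cells (-0.26, adjusted p = 0.0214), which in turn stood below 103 ± 4.04 CPM in 0 h WT cells (-0.49).

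Among the KLF genes, Klf4, a factor of monocyte differentiation and of alternative activation in mouse macrophages, had log2 values of 1.62, 1.64 and 1.81 in MKP5-/- cells at 24 h, 0.63, 0.38 and 0.36 in 24 h WT cells, and 3.08, 3.31 and 3.16 in 0 h WT cells. The groups did not overlap, and MKP5-/- cells lay between the WT groups. Klf4 was 6.62-fold lower in 24 h WT cells than at 0 h (a log2 fold change of -2.73, SE 0.11, adjusted p = 6.66e-09). Without MKP5 it was 2.35-fold higher than in 24 h WT cells (1.23, SE 0.11, adjusted p = 2.84e-05) and still 2.82-fold below 0 h WT cells (-1.49, adjusted p = 5.64e-07).

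Klf2, which limits activation of myeloid and endothelial cells, had log2 values of 3.51, 3.38 and 3.28 in MKP5-/- cells at 24 h, 3.29, 3.44 and 3.34 in 24 h WT cells, and 4.40, 4.47 and 4.50 in 0 h WT cells. The genotypes overlapped and both lay below 0 h WT cells. Klf2 was 2.14-fold lower in 24 h WT cells than at 0 h (a log2 fold change of -1.10, SE 0.07, adjusted p = 1.98e-07). Its difference between MKP5-/- and WT cells was 0.03 (95% interval -0.12 to 0.19, adjusted p = 0.738), and MKP5-/- cells were 2.09-fold below 0 h WT cells (-1.07, adjusted p = 2.95e-07).

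Klf6, which promotes NF-kB-dependent transcription in macrophages, had log2 values of 5.86, 6.02 and 6.00 in MKP5-/- cells at 24 h, 5.92, 5.87 and 5.93 in 24 h WT cells, and 6.36, 6.47 and 6.39 in 0 h WT cells. As with Klf2, the genotypes overlapped below 0 h WT cells, but the step was smaller. Klf6 was 1.41-fold lower in 24 h WT cells than at 0 h (a log2 fold change of -0.50, SE 0.05, adjusted p = 1.11e-05), and MKP5-/- and WT cells differed by 0.06 (95% interval -0.06 to 0.17, adjusted p = 0.461). The MKP5-/- cells were 1.36-fold below 0 h WT cells (-0.44, adjusted p = 3.16e-05).

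Of 14 other KLF genes 8 had enough reads. In 24 h WT cells against 0 h, 2 rose and 5 fell, where 27.4% of all tested genes rose and 28.1% fell, and the median log2 fold change was -0.48, against 0.00 over all tested genes. Klf3, a repressor, rose (0.56, adjusted p = 2.86e-04), and Klf16 (-0.72) and Klf9 (-0.67) fell. In MKP5-/- cells against 24 h WT cells, Klf9 (0.37), Klf10 (0.30) and Klf16 (0.44) were higher and Klf3 was lower (-0.47, adjusted p = 0.00385), with a median of 0.24, against -0.05 over all tested genes. These 4 of 8 stand beside 28.7% of all tested genes called.

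Myc, a basic helix-loop-helix factor that acts with MAX to raise ribosome production and growth, had log2 values of 2.51, 2.81 and 2.77 in MKP5-/- cells at 24 h, 1.15, 0.98 and 1.06 in 24 h WT cells, and 3.99, 4.27 and 3.96 in 0 h WT cells. As for Klf4, the groups did not overlap and MKP5-/- cells lay between the WT groups. Myc was 8.08-fold lower in 24 h WT cells than at 0 h, the steepest fall of the 10 members (log2 fold change -3.01, SE 0.11, adjusted p = 3.44e-09). It was 3.11-fold higher in MKP5-/- cells than in 24 h WT cells (1.64, SE 0.11, adjusted p = 5.59e-06) and 2.60-fold lower than in 0 h WT cells (-1.38, adjusted p = 9.98e-07). Reads ran from 212 to 306 per library in MKP5-/- cells, from 116 to 127 in 24 h WT cells and from 783 to 1021 in 0 h WT cells.

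Genes of the MYC network share MAX or its relative MLX as partner. Of 10 tested genes 5 rose and 3 fell in 24 h WT cells against 0 h, where 27.4% of all tested genes rose and 28.1% fell. The risers included MAX partners that oppose MYC. Mxd4 stood at 236 ± 28.4 CPM in 24 h WT cells and 52.0 ± 2.74 CPM in 0 h WT cells (SD, n = 3; log2 fold change 2.18, adjusted p = 5.82e-09), and Mxi1 (1.25), Mnt (0.50) and Mlxip (0.75), the last a partner of MLX, rose too. Not all MAX partners rose. The 3 genes that fell were Max, Mlx (-0.67) and the MAX partner Mga (-0.31, adjusted p = 0.00562), and Mxd3 did not pass the test (0.49, adjusted p = 0.117). Mlx, Mga and Mxd3 were named after their values were seen. Against 24 h WT cells, none of the 10 was higher and 3 were lower in MKP5-/- cells, the MYC antagonists Mxd1 (-0.64, adjusted p = 6.89e-04), Mxd4 (-0.29, adjusted p = 0.0245) and Mxi1 (-0.28, adjusted p = 0.0307). Mnt (-0.08, adjusted p = 0.279), Mga (-0.12, adjusted p = 0.252) and Mxd3 (-0.22, adjusted p = 0.534) did not pass there. The 3 of 10 called are near the 28.7% of all tested genes called. Max itself was at 70.2 ± 0.551 CPM in MKP5-/- cells, 76.7 ± 3.71 CPM in 24 h WT cells and 101 ± 5.67 CPM in 0 h WT cells. It was lower in 24 h WT cells than at 0 h (-0.39, adjusted p = 1.31e-04), and the genotype difference did not pass the test (-0.13, adjusted p = 0.120).

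Of 20 genes commonly counted as MYC targets, many of them for ribosome assembly, 19 were tested. In 24 h WT cells against 0 h, 18 fell and none rose, where 28.1% of all tested genes fell and 27.4% rose, and the median log2 fold change was -1.42, against 0.00 over all tested genes. The cyclin gene Ccnd2 fell most among those named, to 9.84 ± 1.27 CPM at 24 h, against 119 ± 3.18 CPM at 0 h (-3.60, adjusted p = 5.35e-09), and the nucleolar genes Gnl3 (-1.97), Nolc1 (-1.73) and Nop56 (-1.42) fell as well. Npm1, named after its value was seen, was the 1 that did not pass (-0.11). Without MKP5, 13 of the 19 were higher than in 24 h WT cells and none lower, where 11.8% of all tested genes were higher and 16.9% lower, and the median was 0.32, against -0.05. Ccnd2 stood at 31.1 ± 5.49 CPM in MKP5-/- cells and 9.84 ± 1.27 CPM in 24 h WT cells (1.65, adjusted p = 2.13e-05), and Ppan (0.61), Nop56 (0.47) and Odc1, the first enzyme of polyamine synthesis (0.41), differed by less. All 19 were lower in MKP5-/- cells than in 0 h WT cells (median -1.02, against -0.02), as were 31.4% of all tested genes. This list, like the members and the other lists, was chosen with earlier results of these data known. Its counts beside the shares of all tested genes are therefore a description and not an independent test.

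Ier2, a small nuclear protein of the immediate early response, had log2 values of 3.61, 3.98 and 3.71 in MKP5-/- cells at 24 h, 3.45, 3.56 and 3.64 in 24 h WT cells, and 3.99, 4.10 and 4.12 in 0 h WT cells. The genotypes overlapped, and all 0 h WT libraries lay above both. Ier2 was 1.43-fold lower in 24 h WT cells than at 0 h (a log2 fold change of -0.52, SE 0.09, adjusted p = 5.59e-04). The difference between MKP5-/- and 24 h WT cells, 0.21 (95% interval 0.01 to 0.41), missed the threshold (adjusted p = 0.107) but passed without MKP5-/- replicate 1 (adjusted p = 0.0488) and with upper-quartile scaling (adjusted p = 0.0434). Against 0 h WT cells, Ier2 was 1.24-fold lower in MKP5-/- cells (-0.31, adjusted p = 0.0150), a call lost without MKP5-/- replicate 1 (adjusted p = 0.0610) or WT 0 h replicate 3 (adjusted p = 0.0519) and with upper-quartile scaling (adjusted p = 0.112).

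Ier3, a short-lived protein that affects cell survival and is a substrate of ERK, was the 1 member lower in MKP5-/- cells than in 24 h WT cells. Its log2 values were 3.55, 3.35 and 3.81 in MKP5-/- cells at 24 h, 4.26, 3.99 and 4.61 in 24 h WT cells, and 4.04, 4.02 and 4.05 in 0 h WT cells. The 0 h WT libraries were tight and lay within the range of 24 h WT cells, while all MKP5-/- libraries lay below. Ier3 was 1.64-fold lower in MKP5-/- cells than in 24 h WT cells (log2 fold change -0.72, SE 0.15, adjusted p = 0.00518) and 1.38-fold lower than in 0 h WT cells (-0.47, adjusted p = 0.0186). The last call was lost without MKP5-/- replicate 2 (adjusted p = 0.0649) and with upper-quartile scaling (adjusted p = 0.0747). In WT, 24 h against 0 h gave 0.25 (95% interval -0.07 to 0.57, adjusted p = 0.173), which passed without WT 24 h replicate 2 (0.40, adjusted p = 0.0302) and was 0.09 without WT 24 h replicate 3 (adjusted p = 0.586).

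Nr4a1, the orphan nuclear receptor NUR77 that Ly6C-low monocytes require, had log2 values of 1.34, 1.21 and 0.98 in MKP5-/- cells at 24 h, 0.66, 0.53 and 0.74 in 24 h WT cells, and 0.41, 0.83 and 0.70 in 0 h WT cells. Both WT groups overlapped and all MKP5-/- libraries lay above them. Nr4a1 was 1.44-fold higher in MKP5-/- cells than in 24 h WT cells (log2 fold change 0.53, SE 0.15, adjusted p = 0.0246), and in WT the 95% interval of 24 h against 0 h was -0.34 to 0.33 (adjusted p = 0.997). Against 0 h WT cells it was also 1.44-fold higher in MKP5-/- cells (adjusted p = 0.0119). The genotype call was lost without WT 24 h replicate 1 (adjusted p = 0.0504) or 2 (adjusted p = 0.0842), or without MKP5-/- replicate 1 (adjusted p = 0.0797) or 2 (adjusted p = 0.0623). Among its relatives and those of IER2, Ier5l was at 21.9 ± 0.819 CPM in MKP5-/- cells, 13.7 ± 0.114 CPM in 24 h WT cells and 5.33 ± 1.14 CPM in 0 h WT cells, higher in MKP5-/- than in 24 h WT cells (0.67, adjusted p = 0.00267) and in 24 h WT cells than at 0 h (1.38, adjusted p = 2.77e-06). Of the 4 relatives, 1 rose (Ier5l) and 1 fell (Ier5, -0.21, adjusted p = 0.00613) in 24 h WT cells against 0 h, beside 55.6% of all tested genes called. In MKP5-/- cells against 24 h WT cells 2 were higher, Ier5l and Ier5 (0.17, adjusted p = 0.0325), and none lower, where 11.8% of all tested genes were higher. The relatives of Nr4a1, named after their values were seen, did not pass in that comparison: Nr4a2 (0.69, adjusted p = 0.157) and Nr4a3 (1.09, adjusted p = 0.0670).

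**Figure D3:**
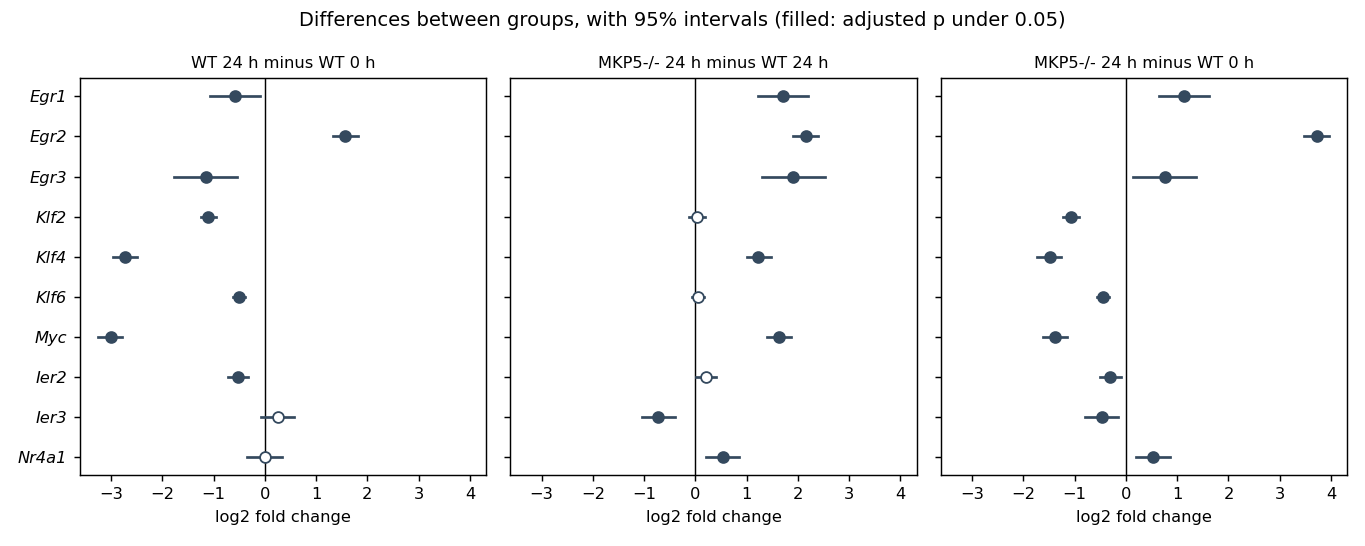
Log2 fold change (horizontal axis) of the 10 transcripts in the 3 comparisons, with 95% intervals from the limma fit over all 9 libraries; filled points passed an adjusted p of 0.05. Without MKP5 the EGR genes, Klf4, Myc and Nr4a1 lie to the right of 0 against 24 h WT cells, Ier3 lies to the left, and the intervals of Klf2 and Klf6 include 0.

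Of 6 transcripts of serum response factor and its partners, 2 rose and 2 fell in 24 h WT cells against 0 h, beside 55.6% of all tested genes called. Srf was at 38.0 ± 1.74 CPM in 24 h WT cells and 55.6 ± 1.56 CPM in 0 h WT cells (SD, n = 3; log2 fold change -0.55, adjusted p = 1.79e-05). Of the 6 none was higher in MKP5-/- cells than in 24 h WT cells, and 2 were lower, the ternary complex factor Elk3 (-0.50, adjusted p = 4.06e-04) and the cofactor Mrtfa (-0.25, adjusted p = 0.00679). These 2 of 6 are near the 28.7% of all tested genes called.

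Of 27 other immediate early genes, 10 rose and 14 fell in 24 h WT cells against 0 h, where 27.4% of all tested genes rose and 28.1% fell (median log2 fold change -0.43, against 0.00). The kinase genes Plk2 (-2.21) and Plk3 (-2.34) and the stress gene Gadd45b (-1.84) fell, and the antiproliferative gene Btg2 rose (1.47). Without MKP5, against 24 h WT cells, 12 were higher and 2 lower, where 11.8% of all tested genes were higher and 16.9% lower (median 0.26, against -0.05). Phlda1 stood at 8.96 ± 0.259 CPM in MKP5-/- cells and 1.60 ± 0.234 CPM in 24 h WT cells (2.48, adjusted p = 2.85e-06), and Plk2 at 151 ± 12.7 CPM in MKP5-/- cells and 52.4 ± 4.43 CPM in 24 h WT cells (1.53, adjusted p = 1.23e-06). Fos (1.18) and Atf3 (1.13), which encode partners in AP-1 dimers, were higher as well. The 2 lower genes, named after their values were seen, were Ccn2 (1.31 ± 0.987 CPM in MKP5-/- cells and 9.90 ± 1.66 CPM in 24 h WT cells, -3.22, adjusted p = 0.00270) and Ccn1 (0.442 ± 0.443 CPM in MKP5-/- cells and 1.97 ± 0.172 CPM in 24 h WT cells, -2.50, adjusted p = 0.0362), both of which encode matrix-associated proteins. In the same comparison 6 of 7 tested fibroblast and stromal markers were lower (median -3.00). In 24 h WT cells against 0 h, Ccn2 (5.58, adjusted p = 1.23e-05) and Ccn1 (3.09, adjusted p = 0.00610) were among the genes that rose. At 0 h they were at 0.196 ± 0.115 CPM and 0.304 ± 0.311 CPM. Of the 7 stromal markers 6 rose there too (median 5.54). The part of these markers in the values of Ccn1 and Ccn2 was not tested.

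**Figure D4:**
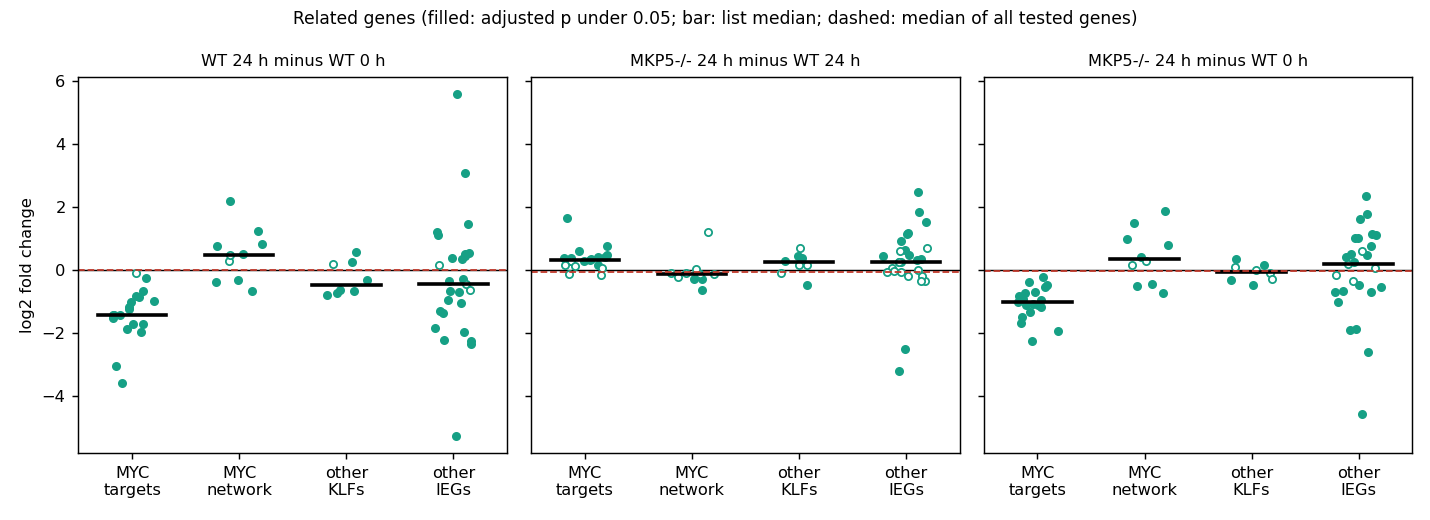
Log2 fold change (vertical axis) of each tested gene among 20 MYC target genes, 12 MYC network genes, 14 other KLF genes and 27 other immediate early genes (IEGs) in the 3 comparisons; filled points passed an adjusted p of 0.05, black bars are list medians and the dashed line is the median of all tested genes. The MYC targets centre at -1.42 in 24 h WT cells against 0 h and at 0.32 in MKP5-/- against 24 h WT cells.

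Likeness of pattern was described by Pearson's correlation of log2 values over the 9 libraries among 9667 other genes with at least 5 CPM on average. The libraries fall into 3 groups, and high values were common: 163, 447 and 266 genes had r above 0.95 with Egr2, Klf4 and Myc in this order. Closest to Egr2 were Pcdh7 (r = 0.999), a protocadherin, Arhgap25 (r = 0.997), a Rac GTPase-activating protein, and Dcstamp (r = 0.996), a receptor of cell fusion. Dcstamp averaged 132 CPM in MKP5-/- cells, 18.1 CPM in 24 h WT cells and 5.14 CPM in 0 h WT cells. For Klf4 they were Bcl2 (r = 0.997), an inhibitor of apoptosis, Tmem158 (r = 0.997) and the adaptor Lat2 (r = 0.996). Bcl2 averaged 11.2 CPM in MKP5-/- cells, 5.18 CPM in 24 h WT cells and 26.3 CPM in 0 h WT cells. For Myc they were Por (r = 0.996), the electron donor of cytochromes P450, the 14-3-3 gene Ywhag (r = 0.995) and the cathepsin Ctsz (r = 0.995), whose averages spanned a narrower range, as with Por at 292 CPM in MKP5-/- cells, 226 CPM in 24 h WT cells and 359 CPM in 0 h WT cells.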

How the data were processed

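Bulk RNA was sequenced in 9 libraries, built by Genewiz/Azenta from 1 µg of total RNA each, per the labels' protocols. The submitters' processing notes name STAR and GRCm39; the sources used here do not give version, annotation, counting tool or use of strand. The deposited values are log2 normalized counts with a TMM factor, per the file headers. They followed log2 of reads plus 0.5 over exon length, and 96.3% of 49892 testable genes gave back whole reads with GENCODE M21 lengths (tolerance 0.02 reads beyond rounding). CPM is recovered reads scaled by the TMM-scaled library size. M21 rests on an earlier assembly and gave lengths only; promoter windows are in GRCm38.p6. Klf6 had too many reads for this check, and Ier2 needed a fitted length.

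Genes with 10 reads at the median depth in 3 libraries and 15 in total were tested (14731). limma 3.58.1 (R 4.3.3; trend, robust) was fitted to the log2 values of all 9 libraries with a mean per group; tests were two-sided, with Benjamini-Hochberg adjustment over all tested genes and a threshold of 0.05. Fold changes keep the 0.5 reads, which understates those of rare genes. The fit was also run on simulated reads with the same spread for all genes and few changed genes. Those settings differ from these data, so the run does not bear on the calls reported here. Members and lists were chosen with earlier results of these data known. Named genes were the members, Dusp10, up to 4 called genes per list by p and the 3 closest patterns. Alternatives covered filter, pseudocount, scaling, variance model, groups fitted, depth, a replicate block and left-out libraries. No replicate pair agreed within sampling noise. One gene of the macrophage marker list is not reported here and was left out of its summed level.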

Additional observations from a re-analysis of the deposited data

How the results depend on the processing

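Each comparison was recomputed under 15 alternatives, 1 of them (a variance trend against log2 CPM) chosen after seeing the data. Of 450 member results, 418 kept direction and call, 23 lost the call, 3 gained it and 6 changed sign. The sign changes were in uncalled differences: Nr4a1 in 24 h WT cells against 0 h gave 0.09 with upper-quartile scaling, 0.01 with reads thinned to the shallowest library and -0.12 to 0.09 with 1 library left out, and Klf2 in MKP5-/- against 24 h WT cells gave -0.02 to 0.09 with 1 library left out. Genes called lower in MKP5-/- than in 24 h WT cells numbered 1658 (without WT 24 h replicate 2) to 2413 with 1 library left out, against 2493; the cause was not tested. Replicate numbers were not treated as pairs, because the labels do not say what they mark. Same-numbered libraries of different groups had deviation correlations of -0.023 to 0.194, and 5 of 9 libraries were closest to one of their own number. These values do not settle whether the numbers mark pairs. With the number as a block, 8, 7 and 9 members were called for 24 h against 0 h WT cells, MKP5-/- against 24 h WT cells and MKP5-/- against 0 h WT cells; the block gave 4079, 1848 and 3816 genes higher. The lost call was Egr3 (adjusted p = 0.0514). Depth limits Egr3 most, with 27 reads in its lowest library.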
